A study of Mus musculus with 6 samples.

Results

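The genes described here are 10 members of the acute-phase response and of the signalling axis of the cytokines oncostatin M (OSM) and interleukin-6 (IL6): Lcn2, Saa3, Serpina3n, Serpina3i and Chil1, the receptor genes Osmr, Il6ra and Il6st, and the signalling genes Stat3 and Socs3. They were found by gene name among 26554 features per library, and all 10 were present and had enough counts to be tested. They were chosen by their log2 fold change between collagenase and saline libraries and by their known roles, so every value of that comparison is given for them as a description, without a test. The tissue was the VPL/VPM region, the ventral posterior nuclei through which the thalamus relays touch and pain, taken from wild-type C57 mice on day 14 after a right-sided injection. The collagenase group received 0.01 U of type IV collagenase in 10 nL, an enzyme that weakens vessel walls and so causes a small haemorrhage as a model of central post-stroke pain. The saline group received 10 nL of saline, so both groups were injected. Each group has 3 poly(A) RNA libraries, whether a library is 1 animal or a pool is not stated in the labels, and no age or sex is given. The p-values therefore measure the spread between these libraries, which may in part be technical.

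Acute-phase proteins are secreted proteins whose synthesis climbs during inflammation, mainly in the liver, but some are also made in the brain by reactive astrocytes, the glial cells that surround damaged tissue, and by macrophages. OSM and IL6 bind a receptor of their own, OSMR or IL6RA, and signal through the shared chain gp130, encoded by Il6st. Gp130 activates JAK kinases, which phosphorylate STAT3, and STAT3 then enters the nucleus and switches on genes that include Socs3, an inhibitor that shuts the receptor down again.

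Total counts lay between 33603076 and 44815451 per library. All 8 relay neuron markers had counts in both groups, and their summed level was 2254 to 2606 CPM (counts scaled to library size with TMM factors) in collagenase and 2528 to 3357 CPM in saline libraries. Choroid plexus and ependyma markers summed to 1836, 1985 and 45.1 CPM in collagenase replicates 1, 2 and 3 and to 939.5, 2601 and 51.3 CPM in saline replicates 1, 2 and 3, so replicate 3 of each group stood apart in this sum. Most of the sum in replicates 1 and 2 was Ttr, a choroid plexus gene. The ependyma markers Foxj1, Ccdc153 and Tmem212 did not drop in replicate 3. Foxj1 had 23.8, 19.8 and 18.3 CPM in collagenase replicates 1, 2 and 3 and 11.9, 14.6 and 21.4 CPM in saline replicates 1, 2 and 3. Tissue RNA does not tell more cells of a type from more RNA per cell, and this holds for every level below. The features called over the whole table numbered 416 of 17240, or 2.41%, at an edgeR adjusted p under 0.05, with 366 (2.12%) higher and 50 (0.29%) lower after collagenase. Of the 10 members 6 passed, all higher: Lcn2, Saa3, Serpina3n, Serpina3i, Chil1 and Il6ra. Il6ra passed in 1 and Serpina3i in 2 of the 6 fits that leave out 1 library. Since the same contrast chose the genes, nothing is read from these counts. In 9 of the 10 members, all but Il6st, the groups did not overlap, while 17.6% of all tested features did not overlap, 10.1% with the collagenase libraries higher. The median log2 fold change was 1.51 over the members and -0.02 over all tested features.

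**Figure D1:**
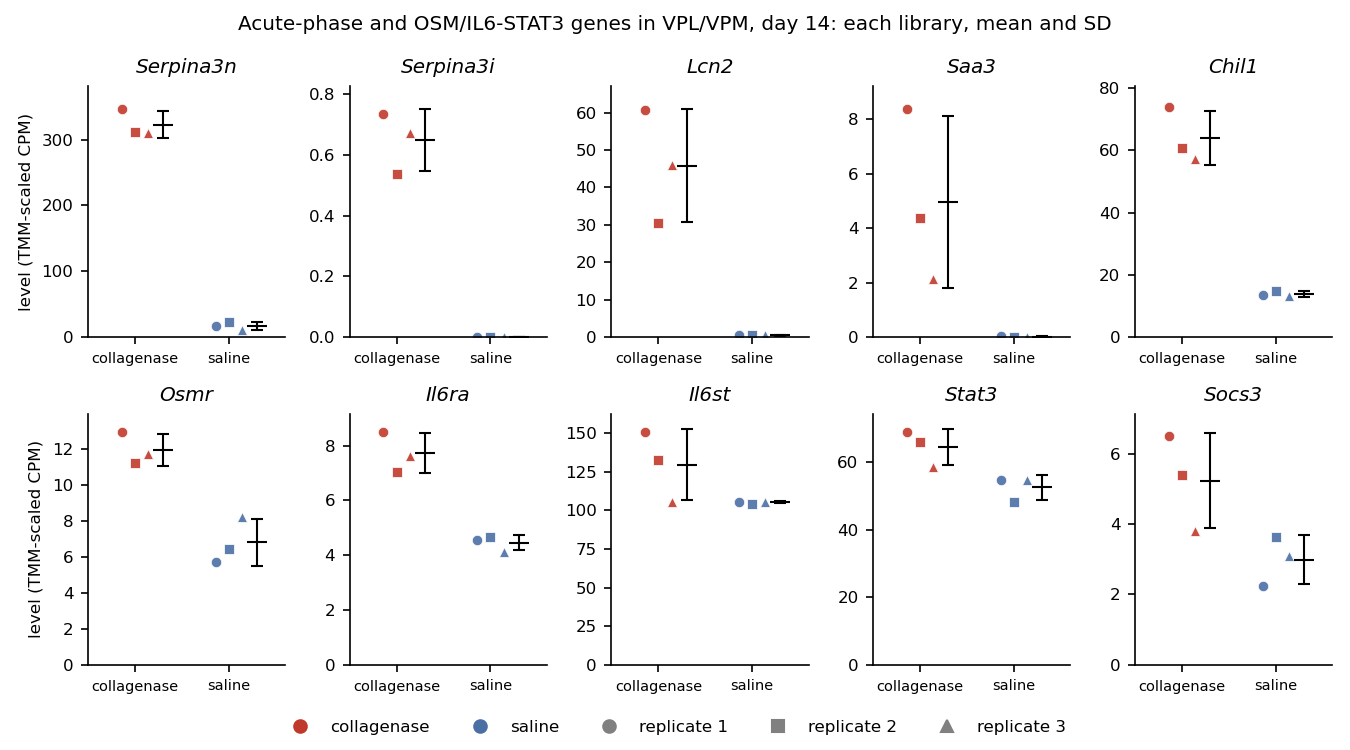
Level of each of the 10 genes in every library, in TMM-scaled CPM on linear axes from 0; circles, squares and triangles are replicates 1, 2 and 3, and the black bar is the mean ± SD of 3 libraries. Serpina3n, Serpina3i, Lcn2, Saa3 and Chil1 are far apart between groups, while the collagenase and saline points of Il6st overlap, with 105.0 CPM in collagenase replicate 3.

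Among the 5 acute-phase members, Serpina3n had the highest level in collagenase libraries, while in saline libraries it was close to Chil1. Serpina3n (ENSMUSG00000021091, chromosome 12, 104406729 to 104414329, plus strand, GRCm38) encodes a secreted inhibitor of serine proteases and is a classical gene of reactive astrocytes. It had 346, 311.0 and 310.4 CPM in collagenase replicates 1, 2 and 3, and 16.7, 23.4 and 10.97 CPM in saline replicates 1, 2 and 3. The collagenase libraries were close to each other, with a highest level 1.12 times the lowest, while in saline the highest was 2.13 times the lowest. The log2 fold change was 4.25 with a standard error (SE) of 0.26, and the ratio of the means was 19.0. Without single libraries that ratio lay between 16.1 and 23.3. Serpina3n alone made up 47.0% to 51.4% of the summed CPM of the 10 genes in collagenase libraries, against 5.48% to 11.3% in saline libraries.

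Serpina3i (ENSMUSG00000079014, chromosome 12, 104263122 to 104269372, plus strand) lies in the same cluster of Serpina3 genes. It was detected in collagenase libraries only at a low level, with 35, 20 and 26 counts or 0.735, 0.538 and 0.674 CPM in replicates 1, 2 and 3. Saline replicates 1, 2 and 3 had 0 counts each. Relative to a floor of 3 counts in the 3 saline libraries together (0.0266 CPM), the collagenase level of Serpina3i was at least 24.4-fold higher, and between 22.8-fold and 26.5-fold higher without single collagenase libraries. Without saline replicate 1, 2 or 3 the floor of 3 counts lies in fewer libraries, and the bound was 14.8-fold, 17.0-fold and 17.0-fold. Floors and counting intervals cover counting error only, since PCR reads are not independent molecules. Of 8 other genes of the cluster in the files, 5 had 0 counts in every library. Serpina3g, at 2.40, 1.69 and 2.10 CPM in collagenase and 1.19, 1.92 and 0.704 CPM in saline libraries, and Serpina3f were the other members with enough counts to be tested, and both did not pass (edgeR adjusted p 0.53 and 0.966). Neither of these 2 had an unadjusted p under 0.05, and DESeq2 and limma also called 0. Serpina3n held 98.9% to 99.3% of the counts of the whole cluster in collagenase libraries and 90.7% to 91.9% in saline libraries.

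The Serpina3 genes arose by duplication, so their reads can be confused. In the GENCODE M21 transcripts 0% of the 50-base words of Serpina3i occur in Serpina3n, and their coding sequences are identical at 85.1% of aligned bases. By coding identity the nearest of the compared genes to Serpina3i was Serpina3f, with 92.2% coding identity and 4.18% of its 50-base words shared. Serpina3g shared more of the words, 4.97%, at 86.8% coding identity, and had more counts, 258 in collagenase and 143 in saline libraries. The longest coding run common to Serpina3i and Serpina3f lies at bases 223 to 354 of the Serpina3i coding sequence. It is shown because reads that lie within it cannot be assigned to either gene.
Serpina3i and Serpina3f, shared run: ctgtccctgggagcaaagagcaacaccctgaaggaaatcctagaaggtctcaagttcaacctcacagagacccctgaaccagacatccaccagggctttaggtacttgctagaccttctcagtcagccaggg
Across all other Serpina3 genes 7.02% of the words of Serpina3i and 6.75% of those of Serpina3n were shared. How the authors counted reads that match several genes is not given in the sources used here, so the counts of Serpina3i are uncertain to that extent. Serpina3f itself overlapped between groups, with 0.546, 0.134 and 0.233 CPM in collagenase and 0.135, 0.407 and 0.323 CPM in saline libraries.

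The promoter windows of both genes, from RefSeq (GRCm38.p6, plus strand, 250 bases before to 50 bases after the start site), are shown because the genes were both higher after collagenase and their windows are related. The windows lie at chr12:104262872-104263171 for Serpina3i and chr12:104406458-104406757 for Serpina3n. Capitals mark matches in Serpina3i to the STAT-type motif TTCNNNGAA (TTCCCAGAA) and to the NF-kB-type motif GGGNNNTCC (GGGTTTTCC), and in Serpina3n the 9 bases aligned with the STAT-type match.
Serpina3i: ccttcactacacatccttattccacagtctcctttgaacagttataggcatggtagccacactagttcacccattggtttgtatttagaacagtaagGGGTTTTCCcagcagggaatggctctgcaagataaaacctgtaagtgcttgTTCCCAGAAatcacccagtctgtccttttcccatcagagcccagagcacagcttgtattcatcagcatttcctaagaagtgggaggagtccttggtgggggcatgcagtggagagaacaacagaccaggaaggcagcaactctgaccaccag
Serpina3n: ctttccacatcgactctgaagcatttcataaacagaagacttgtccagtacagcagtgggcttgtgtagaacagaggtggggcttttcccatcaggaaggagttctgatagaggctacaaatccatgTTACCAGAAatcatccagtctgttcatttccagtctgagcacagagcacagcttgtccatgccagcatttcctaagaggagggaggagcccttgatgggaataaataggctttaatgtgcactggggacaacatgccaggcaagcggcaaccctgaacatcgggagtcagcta
The windows were identical at 76.5% of 272 aligned bases. Within the 9 bases, counted from the 5′ end of the Serpina3i match, the Serpina3n window differed by the substitution C3A and so does not match TTCNNNGAA. A match is a run of letters and not a shown binding site.

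Lcn2 (ENSMUSG00000026822, chromosome 2, 32384633 to 32388252, minus strand) encodes lipocalin-2, a secreted protein that binds iron-loaded siderophores and is made by reactive astrocytes, neutrophils and epithelia. It had 2891, 1136 and 1780 counts in collagenase replicates 1, 2 and 3, and 21, 22 and 16 counts in saline replicates 1, 2 and 3. On the CPM scale this was 60.7, 30.5 and 46.1 in collagenase, and 0.473, 0.640 and 0.469 in saline libraries. Saline levels were low and even, and the collagenase libraries differed among themselves by a factor of 1.99. The log2 fold change was 6.44 (SE 0.32), a ratio of means of 86.8 that lay between 72.7 and 101 without single libraries. By rank of the log2 fold change Lcn2 was at position 29, Serpina3n at 48 and Chil1 at 184 of the 17240 tested features.

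Saa3 (ENSMUSG00000040026, chromosome 7, 46711998 to 46715700, minus strand) encodes serum amyloid A3, an acute-phase apolipoprotein that in mice is made outside the liver, by macrophages among others. It had 398, 163 and 83 counts in collagenase replicates 1, 2 and 3, and 2, 0 and 0 counts in saline replicates 1, 2 and 3. The collagenase libraries held 8.36, 4.38 and 2.15 CPM, a 3.89-fold spread that was the widest of the 10 genes. With 2 saline counts in all, the ratio was 294 with an exact 95% counting interval of 81.2 to 2437. Collagenase replicate 1 weighed on the level: without it the mean was 3.27 CPM, against 4.96 CPM with it, and the ratio of mean CPM was 217.5, against 330.5 with it. Without saline replicate 1, which held both saline counts, Saa3 was at least 113-fold above a floor of 3 counts in the remaining saline libraries.

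The promoter windows of Lcn2 and Saa3 are shown for their matches to motifs of other acute-phase regulators. In Lcn2 (chr2:32387690-32387989, minus strand) capitals mark 1 match to the C/EBP-type motif TTGCNNAA and 2 matches to GGGNNNTCC, and in Saa3 (chr7:46715627-46715926, minus strand) 1 match to TTGCNNAA, read on the other strand.
Lcn2: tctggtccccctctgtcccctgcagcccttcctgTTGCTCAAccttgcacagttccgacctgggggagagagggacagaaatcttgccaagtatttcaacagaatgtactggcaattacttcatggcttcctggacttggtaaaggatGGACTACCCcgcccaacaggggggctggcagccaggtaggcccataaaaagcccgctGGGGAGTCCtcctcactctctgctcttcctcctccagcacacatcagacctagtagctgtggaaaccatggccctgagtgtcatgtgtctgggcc
Saa3: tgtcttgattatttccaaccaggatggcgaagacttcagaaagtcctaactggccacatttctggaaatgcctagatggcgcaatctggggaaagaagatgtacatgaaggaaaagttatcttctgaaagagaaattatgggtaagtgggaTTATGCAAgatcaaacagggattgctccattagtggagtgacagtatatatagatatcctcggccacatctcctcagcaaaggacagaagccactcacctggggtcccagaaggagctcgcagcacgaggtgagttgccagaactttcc
Both strands were searched in the windows of all 10 genes. TTCNNNGAA was found in 2 of them, Serpina3i and Socs3, and in 8.3% of all 32841 windows in the RefSeq table. TTGCNNAA was found in 2 of the 10, Lcn2 and Saa3, and in 10.8% of all windows. GGGNNNTCC was found in 5 of the 10 (Lcn2, Serpina3i, Chil1, Il6st and Socs3) and in 17.8% of all windows. The 3 motifs were absent from the windows of Serpina3n, Osmr, Il6ra and Stat3, which says only that these letters do not occur there. The windows of Lcn2, Osmr and Socs3 lie wholly inside the genes as annotated in GENCODE M21. For these genes, sequence before the annotated end was not searched. No matches of different motifs overlapped.

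Chil1 (ENSMUSG00000064246, chromosome 1, 134182176 to 134190181, plus strand) encodes a chitinase-like protein without enzyme activity, called YKL-40 in humans, that is secreted by reactive astrocytes and macrophages. It had 73.7, 60.8 and 57.3 CPM in collagenase replicates 1, 2 and 3, and 13.45, 14.78 and 13.05 CPM in saline replicates 1, 2 and 3. Both groups were tight and far apart. The log2 fold change was 2.22 (SE 0.13), the smallest standard error among the 5 acute-phase members, and the ratio of means was 4.65. Chil1 was already well expressed after saline, unlike Lcn2 and Saa3. Of the 3 other chitinase genes tested, 0 passed by edgeR, DESeq2 or limma, and 0 had an unadjusted p under 0.05. Chid1, the most abundant of them, had 38.5 to 39.2 CPM in collagenase libraries and 31.4 to 45.5 CPM in saline libraries. Chil3, a product of alternatively activated macrophages in mice, had 15, 0 and 23 counts in collagenase and 0, 4 and 0 in saline libraries and was not tested.

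The receptor genes differed far less. Osmr (ENSMUSG00000022146, chromosome 15, 6813577 to 6874969, minus strand), a chain of the OSM receptor, had 12.9, 11.2 and 11.7 CPM in collagenase replicates 1, 2 and 3, and 5.75, 6.46 and 8.24 CPM in saline replicates 1, 2 and 3. The lowest collagenase library lay above the highest saline library. Its log2 fold change was 0.81 (SE 0.17), a ratio of means of 1.75. Il6ra (ENSMUSG00000027947, chromosome 3, 89864059 to 89913196, minus strand), the chain specific to IL6, was similar, with 8.51, 7.04 and 7.62 CPM in collagenase and 4.57, 4.65 and 4.14 CPM in saline libraries. Its groups also did not overlap, and its log2 fold change was 0.79 (SE 0.16). An annotated antisense gene overlaps Il6ra by 281 bases, and without strand its reads cannot be told apart from those of Il6ra. Il6st (ENSMUSG00000021756, chromosome 13, 112464070 to 112510086, plus strand), the shared chain gp130, had 150.6, 132.2 and 105.0 CPM in collagenase and 105.4, 104.3 and 105.6 CPM in saline libraries. Saline libraries were nearly equal, collagenase replicate 3 fell within their range, and replicates 1 and 2 lay above it. The log2 fold change of Il6st was 0.30 (SE 0.13) with a 95% interval of -0.01 to 0.61.

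Set against the shared chain within each library, Osmr and Il6ra were higher after collagenase. The ratio of Osmr to Il6st, on the deposited FPKM values, which are scaled for gene length, was 0.134, 0.130 and 0.168 in collagenase replicates 1, 2 and 3, and 0.0846, 0.0965 and 0.120 in saline replicates 1, 2 and 3. The ratio of Il6ra to Il6st was 0.0568, 0.0540 and 0.0725 in collagenase and 0.0426, 0.0443 and 0.0405 in saline libraries. Both sets of ratios were separate between the groups. For Lifr, a receptor chain for leukaemia inhibitory factor among other ligands, the ratio to Il6st was 0.283, 0.324 and 0.331 in collagenase and 0.412, 0.419 and 0.310 in saline libraries, which overlap. Osmr transcripts outnumbered Il6ra transcripts per length in every library, by 2.31 to 2.41 times in collagenase and 1.99 to 2.96 times in saline libraries.

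**Figure D2:**
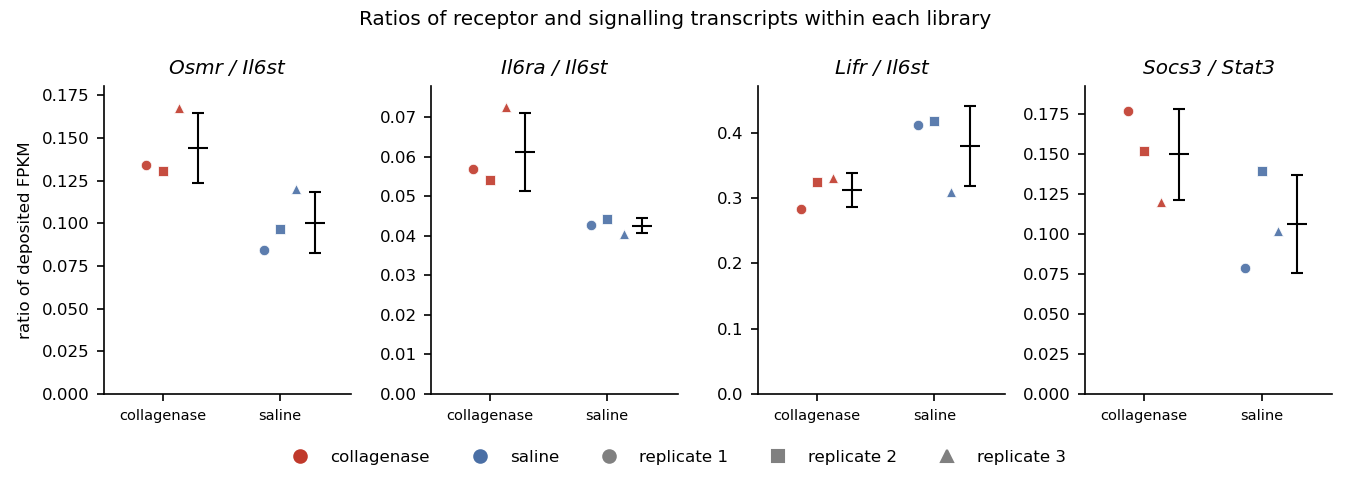
Ratio of deposited FPKM values of 2 genes within each library, on linear axes from 0; symbols are replicates and the black bar is the mean ± SD of 3 libraries. Osmr over Il6st and Il6ra over Il6st do not overlap between groups, whereas Lifr over Il6st and Socs3 over Stat3 do.

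Of the other receptors of the family, 1 of 4 tested genes rose and 0 fell. Il27ra, which pairs with gp130 as the receptor of interleukin-27 and is known mainly from lymphocytes and myeloid cells, had 0.987, 0.833 and 0.803 CPM in collagenase and 0.203, 0.204 and 0.235 CPM in saline libraries. Its log2 fold change was 2.02 (SE 0.35, edgeR adjusted p 0.027), and the call ended in 5 of the 6 fits without 1 library (highest edgeR adjusted p over the alternatives 0.156) and with FPKM and a pseudocount of 1. Lifr averaged 45.7 ± 4.67 CPM in collagenase and 45.2 ± 6.75 CPM in saline libraries (SD, n = 3 each). Cntfr, the receptor chain of ciliary neurotrophic factor, showed a log2 fold change of -0.17 (SE 0.28), and Il11ra1, that of interleukin-11, showed 0.22 (SE 0.20). Lifr, Cntfr and Il11ra1 did not pass (edgeR adjusted p 0.983, 0.885 and 0.744). Il31ra, with 22 counts in collagenase and 25 in saline libraries, was not tested.

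The ligands were scarce. Il6 had 3, 3 and 0 counts in collagenase replicates 1, 2 and 3, and 5, 0 and 4 counts in saline replicates 1, 2 and 3. Osm had 32, 10 and 8 counts in collagenase, or 0.672, 0.269 and 0.207 CPM, and 10, 4 and 0 counts in saline libraries, or 0.225, 0.116 and 0 CPM. Collagenase replicate 1 held most of the Osm counts, replicate 3 lay within the saline range, and both genes were too low to be tested. Of the 7 ligand genes tested 0 passed by edgeR, DESeq2 or limma, and 3 had an unadjusted p under 0.05 in edgeR: Cntf, Clcf1 and Ebi3. Cntf, a cytokine stored in astrocytes and Schwann cells, had 3.61, 2.02 and 2.77 CPM in collagenase and 1.22, 1.72 and 1.20 CPM in saline libraries (log2 fold change 1.03, SE 0.30, edgeR adjusted p 0.171). Clcf1, a cytokine that signals through CNTFR, had 1.62, 1.048 and 1.45 CPM in collagenase and 0.428, 0.727 and 0.557 CPM in saline libraries (log2 fold change 1.27, SE 0.34, edgeR adjusted p 0.134). Both did not overlap between groups. Ebi3, a subunit of interleukin-27, had a log2 fold change of 0.93 (SE 0.30, edgeR adjusted p 0.222), while its partner Il27 had 6 counts in collagenase and 2 in saline libraries. Lif averaged 0.751 CPM in collagenase and 0.881 CPM in saline libraries. Il11 averaged 0.539 CPM in collagenase and 0.390 CPM in saline libraries, and Ctf1 averaged 1.45 CPM in collagenase and 1.64 CPM in saline libraries. Ctf2 had 7 counts in each group, and Il31 had 0 counts in all libraries.

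**Figure D3:**
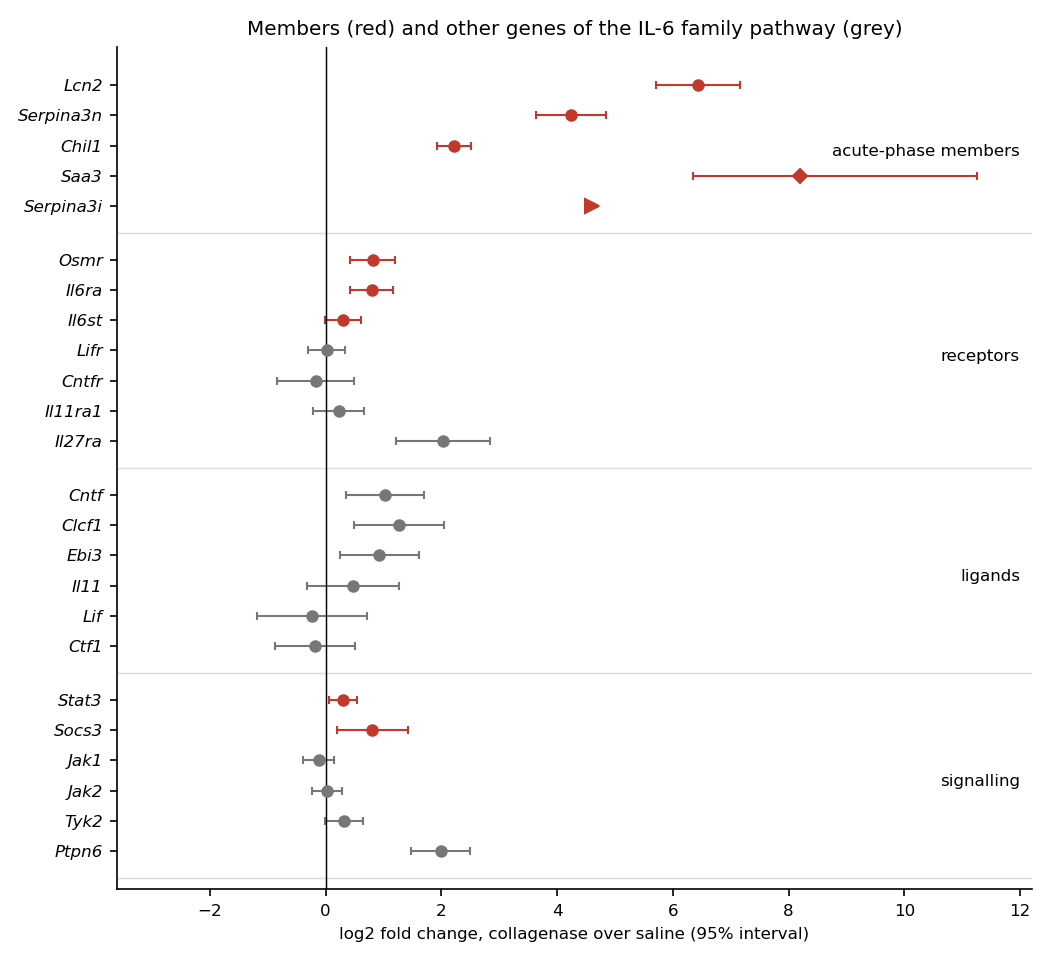
Log2 fold change, collagenase over saline, of the 10 members (red) and of several other receptors, ligands and signalling genes (grey), with the 95% interval of the edgeR fit. The diamond for Saa3 is the count ratio with its counting interval and the arrowhead for Serpina3i is a lower bound; Lcn2 at 6.44 and Serpina3n at 4.25 lie far right of the receptor genes Osmr at 0.81 and Il6st at 0.30.

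Stat3 (ENSMUSG00000004040, chromosome 11, 100885098 to 100939540, minus strand), the transcription factor of the pathway, had 69.0, 66.0 and 58.7 CPM in collagenase replicates 1, 2 and 3, and 54.8, 48.3 and 54.8 CPM in saline replicates 1, 2 and 3. The groups were separate but close, with a log2 fold change of 0.29 (SE 0.11). RNA levels do not show the phosphorylation of STAT3, which was not measured here. The annotated end of Stat3 overlaps Stat5a on the opposite strand by 72 bases, and no strand-marking step is named, but Stat5a had at most 167 counts in a library, against 1660 or more for Stat3. Socs3 (ENSMUSG00000053113, chromosome 11, 117966079 to 117970047, minus strand), its feedback inhibitor, had 6.49, 5.38 and 3.81 CPM in collagenase and 2.25, 3.64 and 3.08 CPM in saline libraries. Collagenase replicate 3 lay just above saline replicate 2, and the log2 fold change was 0.81 (SE 0.27). The ratio of Socs3 to Stat3 on the FPKM scale was 0.177, 0.152 and 0.120 in collagenase and 0.0784, 0.139 and 0.102 in saline libraries, which overlap.

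The window around the RefSeq start of Socs3 (chr11:117969317-117969616, minus strand) is shown because it is the other member window with a match to TTCNNNGAA, in capitals (TTCTTAGAA), besides 1 match to GGGNNNTCC read on the other strand (GGAGGCCCC).
Socs3: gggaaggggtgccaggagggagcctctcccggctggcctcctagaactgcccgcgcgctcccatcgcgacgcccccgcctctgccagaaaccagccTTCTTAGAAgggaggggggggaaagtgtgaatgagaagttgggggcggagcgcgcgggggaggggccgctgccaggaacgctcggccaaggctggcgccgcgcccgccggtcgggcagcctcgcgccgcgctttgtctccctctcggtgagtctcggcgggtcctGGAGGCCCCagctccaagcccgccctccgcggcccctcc
The match begins 154 bases before the RefSeq start site. GENCODE M21 annotates Socs3 up to 117970047, so the whole window lies inside that gene. Sequence before that annotated end was not searched. With the stricter letters TTCNNGGAA only the Serpina3i window had a match, against 4.81% of all windows.

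Of the 19 other tested genes of JAK-STAT3 signalling and its brakes, 1 rose and 0 fell, and their median log2 fold change was -0.08. Ptpn6, the phosphatase SHP-1 of blood-derived cells and microglia, had 16.7, 11.4 and 10.2 CPM in collagenase and 2.91, 3.11 and 3.67 CPM in saline libraries (log2 fold change 1.99, SE 0.22, edgeR adjusted p 0.00437). Ptpn11, the broadly expressed phosphatase SHP-2, averaged 218 CPM in collagenase and 214 CPM in saline libraries and did not pass (edgeR adjusted p 0.968). The kinases Jak1, Jak2 and Tyk2 had log2 fold changes of -0.12, 0.02 and 0.32 and did not pass either.

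Among 20 other tested genes that are known targets of STAT3, 6 rose, 0 fell and 14 did not pass, with a median log2 fold change of 0.36. DESeq2 called 8, and edgeR called 1, Vim, without saline replicate 1, without collagenase replicate 1 or without collagenase replicate 2. The 6 were Vim, Tnfrsf1a, Gfap, Icam1, Il4ra and Bcl3, and several of them also respond to other inflammatory signals. Vim, an intermediate filament of glia and mesenchymal cells, had 114, 80.3 and 93.4 CPM in collagenase and 35.7, 40.1 and 30.4 CPM in saline libraries (log2 fold change 1.44, SE 0.16, edgeR adjusted p 0.00437). Gfap, the filament of astrocytes, had 776, 696 and 442 CPM in collagenase and 175, 250.6 and 134 CPM in saline libraries (log2 fold change 1.78, SE 0.28, edgeR adjusted p 0.0211). Its call ended without saline replicate 1 or without collagenase replicate 1 or 2 (highest edgeR adjusted p 0.12). For Tnfrsf1a, a receptor of tumour necrosis factor, the log2 fold change was 0.86 (SE 0.13, edgeR adjusted p 0.0141) and for Icam1, an adhesion molecule, it was 1.14 (SE 0.20, edgeR adjusted p 0.027). The call of Tnfrsf1a ended in 3 and that of Icam1 in 4 of the 6 fits without 1 library (highest edgeR adjusted p 0.0881 and 0.107), and that of Il4ra, a receptor of interleukin-4, ended in 5, all but the one without saline replicate 3. Of the targets that did not pass, Timp1, an inhibitor of matrix proteases, had 3.53, 1.96 and 2.59 CPM in collagenase and 0.0901, 0.494 and 0 CPM in saline libraries (log2 fold change 3.80, edgeR adjusted p 0.0654). Cebpd, a transcription factor of the acute-phase response, had 12.3, 11.2 and 13.4 CPM in collagenase and 4.24, 7.88 and 5.98 CPM in saline libraries (log2 fold change 1.03, edgeR adjusted p 0.0609). DESeq2 called both. Hif1a, the most abundant of those that did not pass, averaged 113 CPM in collagenase and 118 CPM in saline libraries.

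A wider list of 34 acute-phase genes, most of them known from liver, also held Lcn2, Saa3 and Serpina3n. Of the 34, 6 had 0 counts in all libraries, Crp, Apcs, Orm1 and Orm2 among them, and 19 were tested. Leaving out the 3 members, 7 of 16 rose, 0 fell and the median log2 fold change was 1.18. The 7 were A2m, C3, Cp, Serping1, C4b, Steap4 and Hp. The call of Hp ended in 5 of the 6 fits without 1 library, all but the one without saline replicate 3, and that of Steap4 ended without saline replicate 1. A2m, alpha-2-macroglobulin, which traps proteases, had 82.9, 56.3 and 51.4 CPM in collagenase and 10.97, 12.25 and 8.01 CPM in saline libraries (log2 fold change 2.61, SE 0.23, edgeR adjusted p 0.00187). C3, the central complement protein, had 79.6, 36.2 and 34.4 CPM in collagenase and 1.35, 1.047 and 0.909 CPM in saline libraries (log2 fold change 5.49, SE 0.42, edgeR adjusted p 0.00219). For Cp, the copper-carrying ferroxidase ceruloplasmin, the log2 fold change was 1.09 (SE 0.12, edgeR adjusted p 0.00437) and for Serping1, the C1 inhibitor, it was 1.70 (SE 0.21, edgeR adjusted p 0.00688). The liver-type serum amyloids Saa1 and Saa2 had 9 and 28 counts in collagenase, against 12 and 12 counts in saline libraries, and Saa4 had 0 in all. Saa3 shared 1.78% of its 50-base words with Saa1 and 0% with Saa2. Ttr, transthyretin, followed the choroid plexus markers, with 1669, 1853 and 10.2 CPM in collagenase and 847, 2382 and 12.9 CPM in saline libraries, and did not pass (edgeR adjusted p 0.99). Alb had 4, 6 and 0 counts in collagenase replicates 1, 2 and 3 and 0 counts in saline libraries.

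Partners of lipocalin-2 and other lipocalins were tested beside it. Of 5 other genes of this list 0 passed in edgeR and 3 had an unadjusted p under 0.05, whereas DESeq2 called 2, Mmp9 and Apod, both higher. Apod, a lipocalin, was also called by limma with both FPKM settings and by edgeR without saline replicate 3. Slc22a17, which encodes a cell-surface receptor for lipocalin-2, had 486, 504 and 524 CPM in collagenase and 497, 591 and 450.3 CPM in saline libraries, so that it was abundant in both groups and its values overlapped. Mmp9, a matrix protease that binds lipocalin-2 in neutrophils, had 2.65, 2.02 and 3.29 CPM in collagenase and 1.08, 1.51 and 0.909 CPM in saline libraries (edgeR adjusted p 0.112). Ptgds, a brain lipocalin that makes prostaglandin D, had 579, 825 and 1408 CPM in collagenase and 436, 716 and 433 CPM in saline libraries and did not pass (edgeR adjusted p 0.413).

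Acute-phase genes also respond to interleukin-1, interleukin-17, tumour necrosis factor and NF-kB. Of 15 tested genes of these routes 4 rose, 0 fell, and the median log2 fold change was 0.63: Tnfrsf1a and Bcl3, which are on the STAT3 list too, Il17ra and Nfkbia. Il17ra, the receptor of interleukin-17, had 12.04, 9.87 and 10.8 CPM in collagenase and 6.15, 6.25 and 6.39 CPM in saline libraries (log2 fold change 0.80, SE 0.14, edgeR adjusted p 0.0291), while Il17a had 0 counts in all libraries. For Nfkbia, the inhibitor that NF-kB induces against itself, the log2 fold change was 0.63 (SE 0.11, edgeR adjusted p 0.0299), and for Bcl3, a nuclear cofactor of NF-kB, it was 1.33 (SE 0.24, edgeR adjusted p 0.03). The calls of Il17ra and Nfkbia ended in 5 and that of Bcl3 in 4 of the 6 fits without 1 library (highest edgeR adjusted p 0.15, 0.144 and 0.138). With FPKM values and limma, Il17ra did not pass either. DESeq2 called 8 of the 15, and edgeR called 0 without saline replicate 1, without collagenase replicate 1 or without collagenase replicate 2. Of the 15 genes 14 had a positive log2 fold change and 13 an unadjusted p under 0.05. The same shares over all tested features are not given here. This list and the others were chosen with earlier results of these data known, so nothing is read from such counts. The cytokine genes Il1b and Il1a had log2 fold changes of 2.06 and 1.61 without passing (edgeR adjusted p 0.0724 for Il1b and 0.206 for Il1a). DESeq2 and limma with both FPKM settings called Il1b. Tnf, with 24, 22 and 7 counts in collagenase and 2, 0 and 2 counts in saline libraries, was not tested. Il1rap, a chain of the interleukin-1 receptor and the most abundant of those that did not pass, was the one gene below 0, at -0.27 (edgeR adjusted p 0.325).

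The order of the 10 genes by level changed between the groups. On the FPKM scale, in collagenase libraries, Serpina3n (153 ± 15.6) came first, followed by Lcn2 (49.3 ± 17.8) and Chil1 (37.5 ± 6.44), whose ranges overlapped (SD, n = 3). Il6st (15.2 ± 3.08), Stat3 (13.3 ± 1.42) and Saa3 (8.82 ± 5.90) came next, each overlapping its neighbour, then Osmr (2.15 ± 0.266) and Socs3 (2.01 ± 0.585), which overlapped, and last Il6ra (0.912 ± 0.117) and Serpina3i (0.283 ± 0.0545). In saline libraries Il6st (11.3 ± 0.541 FPKM) and Stat3 (10.1 ± 0.369 FPKM) came first and did not overlap each other. Serpina3n (7.65 ± 3.14 FPKM) and Chil1 (7.59 ± 0.957 FPKM) followed, overlapping each other, and Serpina3n also overlapped Stat3. Next, with overlapping ranges, were Osmr (1.13 ± 0.149 FPKM) and Socs3 (1.07 ± 0.269 FPKM). Lcn2 (0.517 ± 0.110 FPKM) overlapped Il6ra (0.481 ± 0.0429 FPKM) there, and Saa3 and Serpina3i were listed at 0 FPKM in 2 and in 3 saline libraries. The deposited FPKM and counts of each gene kept a constant ratio between libraries within a factor of 1.08 once scaled for depth.

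All 10 genes were highest in collagenase replicate 1, and the lowest collagenase library was replicate 2 for 4 of them (Lcn2, Serpina3i, Osmr and Il6ra) and replicate 3 for the other 6. Marker sums also differed among these libraries. Leaving out the members, 10 reactive astrocyte markers summed to 994, 852 and 609.5 CPM in collagenase replicates 1, 2 and 3, against 192 to 329.8 CPM in saline libraries, with none at 0, and 6 of the 10 rose. The 9 monocyte and macrophage markers summed to 479, 287 and 203 CPM in collagenase replicates 1, 2 and 3, against 17.8 to 24.1 CPM in saline libraries, none at 0, and 2 of 8 tested rose. The 8 microglia markers summed to 656, 553 and 476.5 CPM in collagenase, against 297 to 315 CPM in saline libraries, none at 0, and 4 of 8 rose. The 8 fibroblast and meningeal markers summed to 277.5, 199 and 189.7 CPM in collagenase, against 102 to 134 CPM in saline libraries, none at 0, and 4 of 7 tested rose. Lyz2, the lysozyme of myeloid cells, made up most of the macrophage sum, with 447, 268.5 and 183 CPM in collagenase replicates 1, 2 and 3, while Ccr2, a receptor of recruited monocytes, had 4.35, 1.29 and 2.02 CPM there. These were the 2 that rose. Ly6c2, another monocyte marker, averaged 2.79 CPM in collagenase and 2.74 CPM in saline libraries (edgeR adjusted p 0.984). Plac8 and Cd163 also overlapped between groups. Ms4a7, Mrc1 and F13a1 were separate between groups but did not pass. Saa3 stood at 168%, 88.3% and 43.3% of its collagenase mean in replicates 1, 2 and 3, and the sums of reactive astrocyte, microglia, macrophage and fibroblast markers were also highest in replicate 1 and lowest in replicate 3. Gfap made up most of the reactive astrocyte sum, with 776, 696 and 442 CPM in collagenase replicates 1, 2 and 3. Single markers did not all keep the order of the sums. Among others, Vim, Steap4, Timp1, Ccr2 and Col1a2 were lowest in replicate 2, and Hspb1 and Slc6a13 were highest in replicate 3. General astrocyte markers were nearly level in the 3 libraries, at 5267 to 5407 CPM, against 4619 to 5043 CPM in saline libraries, with none of the 9 at 0 and 1 of 9 rising. The part of these cell types in the differences was not tested.

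Lcn2 is also a granule gene of neutrophils. The 12 neutrophil markers summed to 5.06, 3.41 and 6.92 CPM in collagenase replicates 1, 2 and 3, against 1.29 to 2.01 CPM in saline libraries, and 1 of 4 tested rose. Camp and Elane had 0 counts in both groups, Ltf had 0 counts in collagenase libraries, and Mpo, Mmp8 and Ly6g had 0 counts in saline libraries. Mmp8 was the 1 that rose, with 25, 21 and 13 counts in collagenase and 0 in saline libraries (edgeR adjusted p 0.0209). Mmp9, S100a8 and S100a9 averaged 2.65, 0.450 and 0.855 CPM in collagenase libraries, against 1.17, 0.0901 and 0.219 CPM in saline libraries. These did not pass in edgeR. Lcn2 averaged 45.8 CPM in collagenase libraries. The part of neutrophils in its level was not tested.

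**Figure D4:**
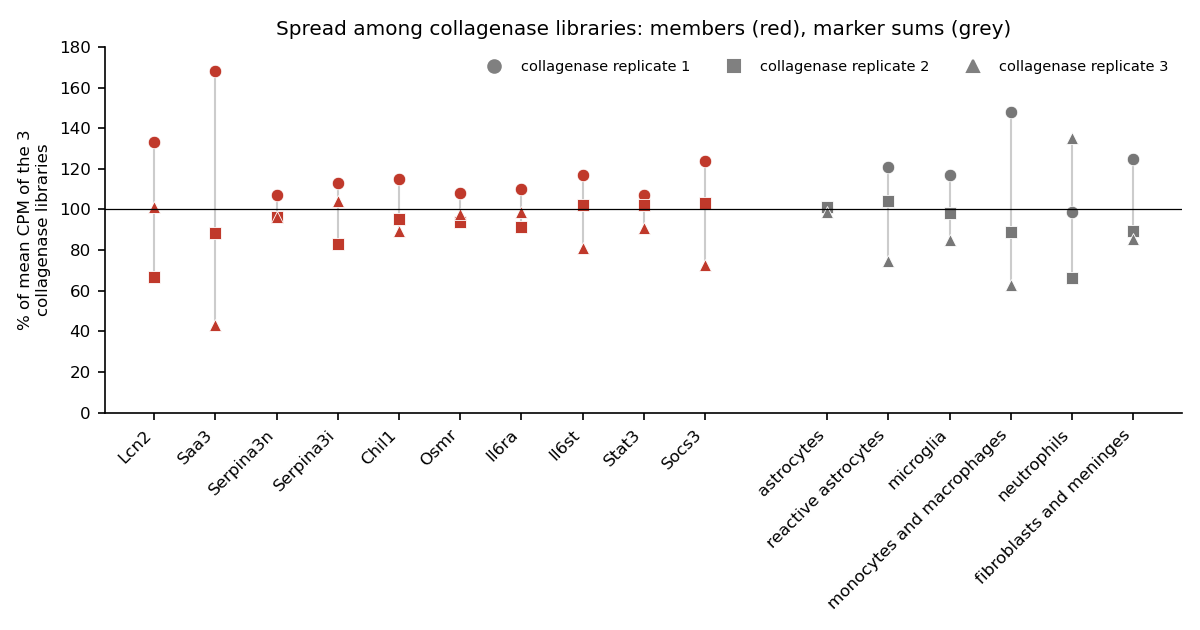
Level in each of the 3 collagenase libraries as a percentage of their mean CPM, for the 10 genes (red) and for summed cell type markers without these genes (grey); the axis is linear from 0. Replicate 1 is highest for every member, Saa3 spans 43.3% to 168%, Serpina3n spans 96.2% to 107%, and the astrocyte sum stays within 98.7% to 101%.

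The genes with the most similar profiles were sought by the Euclidean distance between log2 CPM values centred on their mean over the 6 libraries, among 13318 annotated genes of at least moderate level. Nearest to Lcn2 were Clec7a (distance 1.08), Gpnmb (1.10) and Atp6v0d2 (1.32), all genes known from phagocytes, where the median gene lay at 7.76. Clec7a had 48.9, 27.4 and 21.7 CPM in collagenase and 0.293, 0.204 and 0.293 CPM in saline libraries. Nearest to Serpina3n were Cd74 (0.698), H2-Aa (0.804) and AB124611 (1.04), with 5.38 for the median gene. Cd74, which escorts class II antigen-presenting molecules, had 93.9, 64.2 and 61.3 CPM in collagenase and 3.78, 4.65 and 3.73 CPM in saline libraries. Among the nearest to Socs3 were Rhbdf2 (0.267) and Tor4a (0.348), with 1.31 for the median gene. These distances rest mainly on the size of the difference between the 2 groups, and nothing follows from them about shared control.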

How the data were processed

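RNA of 6 VPL/VPM libraries was analysed, 3 after collagenase and 3 after saline, grouped by sample title. Each file the authors deposited holds raw counts and FPKM values, per the file headers. Tools in the submitters' processing notes are HISAT2 2.2.1, StringTie, FastQC and DESeq2, and the build is GRCm38. Annotation release, strand setting and treatment of multi-mapped reads: not given in the sources used here. Lines of annotation text that had spilled over (10 to 30 per file) were skipped. Positions come from GENCODE M21 (GRCm38) and promoter windows from RefSeq (GRCm38.p6), where all 10 genes matched by symbol.

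The test on counts was that of edgeR 4.0.16, run in R 4.3.3 (filterByExpr, TMM factors of 0.898 to 1.063, robust quasi-likelihood F-test, two-sided, Benjamini-Hochberg adjustment over 17240 features, threshold 0.05). The SE is that of the fit. DESeq2 1.42.0 and limma 3.58.1 on log2(FPKM + 0.1) and log2(FPKM + 1) were alternatives. Steps were tested on simulated data. The members and lists were chosen with earlier results of these data known. Besides the members, all ligands and receptors with counts were named, and from each other list up to 4 genes that passed and the most abundant that did not; other genes were chosen after their values were seen. Likeness used log2 CPM (prior count 2) of genes with an edgeR average log2 CPM of at least 1; this average follows the mean level, so a gene can pass through the group where it is high. Of the listed names Serpina3h is not analysed here, and a few genes that the rule names are not reported here.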

Additional observations from a re-analysis of the deposited data

How the results depend on the processing

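The count of called genes was 416 and stayed within 302 to 448 under other size factors, no filter on low counts, no robust moderation, FPKM values with limma or the replicate block, but was 813 with DESeq2 and 85 to 917 without single libraries (85 without saline replicate 1, 917 without saline replicate 3). Of the 10 members 6 passed, against 4 to 7 without single libraries and 5 to 7 under the other settings, apart from the replicate block. Of the other pathway genes 17 passed, against 7 to 21 without single libraries and 25 with DESeq2. These counts describe genes chosen by the same contrast and support nothing. The log2 fold change of Saa3 ranged from 3.09 with log2(FPKM + 1) to 10.58 without saline replicate 1. The labels do not say that replicate numbers mark pairs. Deviations of same-numbered libraries correlated at 0.0439, 0.107 and 0.203, and not every library correlated best with its own number. With the replicate block 302 genes, 4 members and 12 other pathway genes passed: Il17ra, Nfkbia, Bcl3, Il27ra, Il4ra and Hp no longer did. With TTCNNGGAA in place of TTCNNNGAA the count of members with a match was 1, against 2. Signs changed only for genes near 0 that did not pass: without single libraries the log2 fold change ranged from -0.51 to 0.065 for Lif, -0.38 to 0.012 for Ctf1, -0.11 to 0.10 for Lifr, -0.36 to 0.22 for Cntfr, -0.088 to 0.12 for Ptpn11, -0.14 to 0.022 for Hif1a, -0.46 to 1.45 for Ttr and -0.22 to 0.025 for Chid1. With log2(FPKM + 0.1) and log2(FPKM + 1) it was 0.032 and 0.031 for Hif1a and 0.047 and 0.040 for Chid1. The causes were not tested. Genes with few counts in saline, Saa3 and Serpina3i, have folds limited by counting error.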
